A study of Danio rerio with 6 samples.

Results

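A list of 10 genes that mark early and mature neurons was followed in wild type and rhpn2 mutant zebrafish embryos. It was chosen with earlier results of these data known. The genes were matched by symbol, under a rule that sets no threshold on measured values, and were elavl3, elavl4, tubb5, gap43, nefla, nefma, snap25a, snap25b, sv2a and syt1a. Of these, 9 matched a row among the 31624 genes in the table, and gap43, which encodes a growth cone protein, was not analysed here. The libraries came from whole Danio rerio embryos collected 72 hours post fertilization, 3 of them wild type and 3 rhpn2 mutant, each lettered a to c. Nothing further is stated about the groups, with the allele, strain, clutch and number of embryos per sample not given in the sources used here. Separate clutches are not documented, so each p-value reflects only the spread among these samples, part of which may be technical.

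Newly born vertebrate neurons switch on RNA-binding proteins of the Hu family and neuronal tubulins as they leave the cell cycle and extend axons. Neurofilaments accumulate as axons mature and widen. Synaptic vesicle proteins and the SNARE machinery of vesicle fusion mark neurons that form and use synapses. In zebrafish elavl3, long known as HuC, is a standard marker of postmitotic neurons, and its promoter drives many panneuronal reporter lines.

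Depth ranged from 14918069 to 17056923 counts per library. The rhpn2 transcript itself stood at 11.5 ± 0.675 FPKM in wild type and 2.85 ± 0.131 FPKM in mutants (SD, n = 3), with log2 change -2.12, SE 0.10. FPKM divides a count by exon length and by the library's total, so levels of different genes can be set side by side. Changes are log2 ratios of mutant to wild type fitted by edgeR to counts with TMM scaling, and a gene was called at an adjusted p below 0.05. Because TMM and library totals scale differently, FPKM means and fitted changes can differ in sign when a change is close to 0. Among wild type libraries, replicate a stood apart: its chi-square values per degree of freedom were 11.9 and 14.6 against b and c, which differed from each other by 4.22. Mutant pairs gave 6.68 to 9.24.

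All 9 markers were detected in every library, with 74 to 13063 counts, and all 9 were among the 20032 genes that passed the filter on low counts. The Hu genes elavl3 and elavl4 and the tubulin gene tubb5 rose. Of the neurofilament genes nefla fell and nefma did not pass. The vesicle and SNARE genes snap25a, snap25b, sv2a and syt1a did not pass either. In all, 3 markers were called higher, 1 lower and 5 not, which is 44.4% called. Over all genes tested, 33.2% were called, with 16.5% of the tested genes higher in mutants and 16.7% lower. The share of markers called was thus near that background, and no statement about the markers as a set rests on it. With library totals in place of TMM scaling, 22.1% of all genes were called higher and 11.9% lower, and the 4 markers kept their calls and directions. The markers' median change was -0.02, beside 0.006 for all genes tested. In RNA from whole embryos, fewer cells of a type and less RNA per cell cannot be told apart.

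Levels in wild type spanned a 44.1-fold range. The most abundant marker was tubb5 at 175 ± 11.1 FPKM (SD, n = 3), followed by snap25a at 68.9 ± 11.1, snap25b at 59.9 ± 1.84 and elavl3 at 48.5 ± 11.9 FPKM. Below them came elavl4 at 30.2 ± 5.24, syt1a at 26.5 ± 3.11, nefma at 21.6 ± 1.84, sv2a at 12.9 ± 3.82 and nefla at 3.97 ± 0.353 FPKM. Neighbours whose ranges overlapped were snap25a with snap25b, snap25b with elavl3, and elavl4 with syt1a. In mutants the order was tubb5, elavl3, snap25a, snap25b, elavl4, syt1a, nefma, sv2a and nefla, with overlapping ranges for snap25b with elavl4 and for nefma with sv2a. In each of the 3 wild type libraries elavl3 had a lower FPKM than snap25a, and in each of the 3 mutant libraries a higher one.

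**Figure D1:**
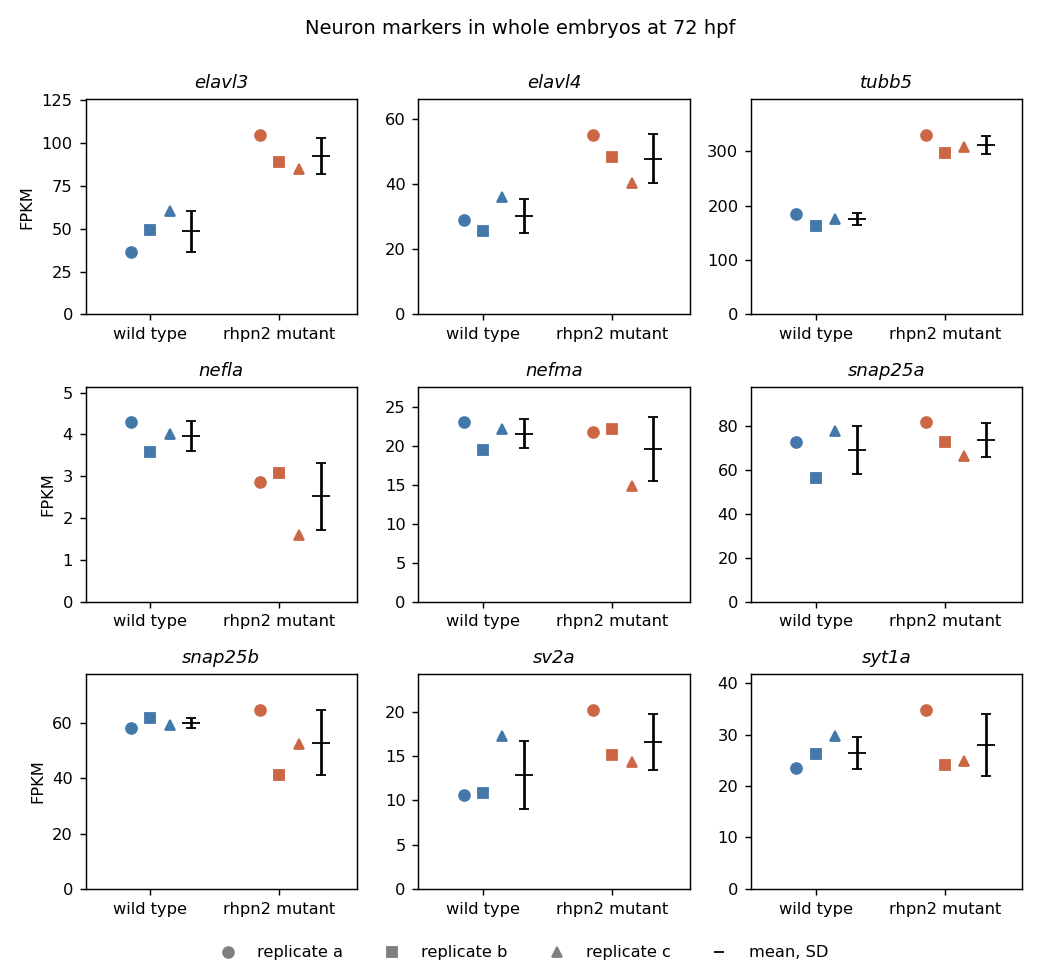
FPKM (vertical axes, each from 0) of the 9 markers in the 3 wild type libraries (blue) and the 3 rhpn2 mutant libraries (orange), with the mean and SD in black and the replicate letter as the symbol. The groups do not overlap for elavl3, elavl4 and tubb5, which were higher in mutants, and for nefla, which was lower, whereas they overlap for nefma, snap25a, snap25b, sv2a and syt1a.

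The Hu family genes elavl3 and elavl4 were higher in mutants. The gene elavl3 (ENSDARG00000014420, chromosome 3, 48848938 to 48865522, minus strand) encodes a protein that binds neuronal transcripts and affects their splicing and stability. Its level, with replicates always in the order a, b, c, was 36.3, 49.2 and 60.1 FPKM in wild type, and 105, 88.7 and 84.8 FPKM in mutants. The lowest mutant library stood above the highest wild type library, and wild type libraries varied more, with coefficients of variation of 24.5% against 11.4%. The rise was 1.78-fold (95% interval 1.45 to 2.18; log2 change 0.83, SE 0.14, adjusted p 0.0006 in edgeR's quasi-likelihood test). Its interval overlapped those of tubb5 and elavl4, and the order of elavl3 and tubb5 by size of rise turned without wild type a (0.68 for elavl3 and 0.80 for tubb5 on the log2 scale) and with quantile normalization (0.94 and 1.01).

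Its relative elavl4 (ENSDARG00000045639, chromosome 8, 15968442 to 16080266, plus strand), also named HuD, has a related role in differentiating neurons. It stood at 29.0, 25.7 and 35.9 FPKM in wild type and at 54.9, 48.1 and 40.1 FPKM in the mutants. The groups did not overlap, and mutant c was the closest to wild type. The rise was 1.47-fold (95% interval 1.21 to 1.77; log2 change 0.55, SE 0.13, adjusted p 0.0056). An antisense gene within its span, si:dkey-50d16.1, had at most 8 counts in any library.

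Within a library, the ratio of elavl4 to elavl3 was 0.799, 0.522 and 0.598 in wild type and 0.525, 0.543 and 0.473 in mutants. Those ratios overlapped, and their difference of -0.30 on the log2 scale had p = 0.3 by an exact two-sided permutation test (0.4 after adjustment over the 3 pairs of markers compared). The difference was -0.12 without wild type a and -0.43 without wild type b. Another Hu gene, elavl2, was scarce at 0.317 ± 0.0493 FPKM in wild type and 0.657 ± 0.169 FPKM in mutants (log2 change 0.93, adjusted p 0.0772).

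The beta tubulin gene tubb5 (ENSDARG00000037997, chromosome 16, 10427991 to 10436718, plus strand) encodes a subunit of microtubules. Wild type libraries had 186, 163 and 176 FPKM, and mutant libraries 330, 298 and 307 FPKM. Replicates lay close together, with coefficients of variation of 6.34% and 5.37%, and a wide gap separated the groups. The rise was 1.65-fold (95% interval 1.42 to 1.92; log2 change 0.72, SE 0.10, adjusted p 0.000199).

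None of the 5 other beta tubulin genes tested passed. The most abundant of them, tubb4b, had 736 ± 34.1 FPKM in wild type and 672 ± 25.2 FPKM in mutants (log2 change -0.24, adjusted p 0.0996). For tubb2b the levels were 578 ± 23.7 and 715 ± 17.2 FPKM (log2 change 0.20, adjusted p 0.156). The log2 changes of tubb1, tubb2 and tubb6 were 0.47, -0.03 and -0.27. Tubulin copies are similar in sequence, and how reads matching several copies were assigned was not stated, so the split between copies is uncertain.

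The neurofilament genes nefla and nefma encode the light and medium chains of the intermediate filaments that fill large axons. They lie tail to tail on chromosome 21, nefla (ENSDARG00000057568) at 18970961 to 18974198 on the plus strand and nefma (ENSDARG00000021351) at 18977214 to 18981819 on the minus strand, with 3015 bases between them. Both lie inside the annotated span of the ribosomal protein gene rpl17 (18960867 to 19030881, plus strand), which had 17998 to 21194 counts per library. Its log2 change was -0.19 (adjusted p 0.269). Whether reads of rpl17 were counted for either gene was not tested.

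Levels of nefla were 4.29, 3.59 and 4.02 FPKM in wild type libraries, and mutant libraries had 2.87, 3.09 and 1.6 FPKM. Every mutant library was below every wild type library, and mutant c, with 74 counts, was the lowest. The fall was 1.69-fold (log2 change -0.76, 95% interval -1.20 to -0.32, SE 0.20, adjusted p 0.0126). Without mutant c the log2 change was -0.53 (adjusted p 0.0388).

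For nefma the values were 23.0, 19.5 and 22.3 FPKM in wild type and 21.9, 22.2 and 14.8 FPKM in mutants. Mutants a and b lay inside the wild type range and mutant c below it. The log2 change of -0.25 (95% interval -0.55 to 0.04) missed the threshold (adjusted p 0.175).

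The ratio of nefma to nefla was almost constant in wild type libraries at 5.37, 5.44 and 5.53, and was 7.61, 7.17 and 9.26 in mutant libraries. This ratio does not depend on the scaling between libraries, and the groups did not overlap. Its difference of 0.55 on the log2 scale, a ratio 1.46-fold higher in mutants, had p = 0.1 in the exact two-sided permutation test, the smallest p possible with these group sizes, and p = 0.3 after adjustment over the 3 pairs. Neither of the second copies passed. The log2 change was -0.26 for nefmb (24.3 ± 2.73 and 22 ± 3.90 FPKM) and 0.07 for neflb (13.0 ± 1.62 and 14.8 ± 1.88 FPKM), so in wild type neflb was more abundant than nefla.

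The genes snap25a and snap25b encode the zebrafish copies of SNAP-25, the plasma membrane SNARE protein in the fusion of synaptic vesicles. The level of snap25a (ENSDARG00000020609, chromosome 20, 35010165 to 35053351, plus strand) was 72.7, 56.4 and 77.5 FPKM in wild type and 81.5, 72.7 and 66.0 FPKM in mutants. These ranges overlapped over most of their width. The log2 change was -0.02 (95% interval -0.28 to 0.24, adjusted p 0.918), which as a fold runs from 0.823 to 1.18.

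For snap25b (ENSDARG00000058117, chromosome 17, 12143918 to 12231242, minus strand) wild type libraries were tight, with 58.4, 62.0 and 59.5 FPKM, while mutant libraries were spread, with 64.9, 41.4 and 52.5 FPKM. Mutant a was above all wild type libraries and mutants b and c were below them. The log2 change of -0.29 (95% interval -0.57 to -0.01) missed the threshold after adjustment (adjusted p 0.0981). Leaving out mutant a gave -0.44 (adjusted p 0.0224), where 12.8% of all genes were called lower, and leaving out mutant b gave -0.14 (adjusted p 0.381). The ratio of snap25b to snap25a was 0.802, 1.1 and 0.767 in wild type and 0.797, 0.569 and 0.796 in mutants. These ratios overlapped (exact two-sided permutation p = 0.4), and their log2 difference of -0.30 was -0.14 without wild type b or mutant b. The related SNARE genes snap23.1, snap23.2, snap29 and snap47, whose products act in membrane fusion in many cell types, did not pass.

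Neither vesicle protein gene passed. The product of sv2a (ENSDARG00000059945, chromosome 16, 46137709 to 46235989, plus strand) is a glycoprotein of the synaptic vesicle membrane. Its level was 10.6, 10.8 and 17.3 FPKM in wild type and 20.2, 15.2 and 14.3 FPKM in mutants, so wild type c lay within the mutant range while wild type a and b lay below it. The log2 change was 0.26 (95% interval -0.09 to 0.61, adjusted p 0.243), and without wild type c it was 0.48 (adjusted p 0.0159). Leaving out wild type a, wild type b or mutant a gave 0.16, 0.14 and 0.11 (adjusted p 0.484, 0.57 and 0.668).

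A synaptotagmin, the calcium sensor that triggers transmitter release, is encoded by syt1a (ENSDARG00000030614, chromosome 4, 21408781 to 21594424, plus strand). It had 23.6, 26.2 and 29.8 FPKM in wild type and 34.8, 24.1 and 24.8 FPKM in mutants, with overlapping groups. Its log2 change was -0.03 (95% interval -0.30 to 0.24, adjusted p 0.863). The paralogues syt1b and syt2a, at -0.37 and 0.42, did not pass.

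A paralogue of sv2a did change. The gene sv2ba had 12.6, 14.8 and 14.7 FPKM in wild type and 7.06, 4.93 and 4.88 FPKM in the mutants, where all 3 libraries were below the wild type range. The fall was 2.69-fold (log2 change -1.43, SE 0.13, adjusted p 7.52e-06). The other copies sv2bb and sv2c, at -0.01 and 0.38, did not pass. With TMM scaling sv2ba was the only gene called of 17 tested paralogues of the markers, beside 33.2% of all genes. With library totals 4 of the 17 paralogues were called higher and 1 lower, beside 22.1% and 11.9% of all genes. Without wild type c 2 were called higher and 1 lower, beside 13.6% and 14.8% of all genes. No statement about the paralogues as a set rests on these counts.

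**Figure D2:**
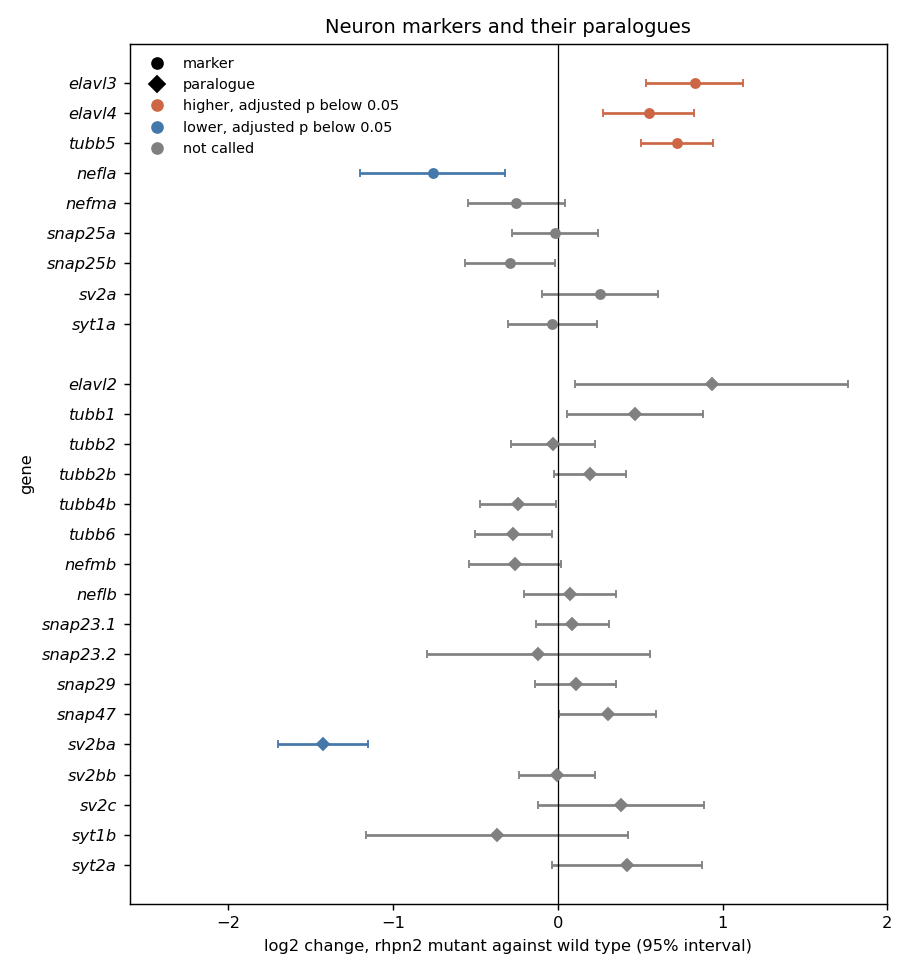
Log2 change of mutant against wild type with its 95% interval (horizontal axis) for the 9 markers (circles, top) and their 17 tested paralogues (diamonds, bottom), coloured by whether the adjusted p was below 0.05. The intervals of the called genes elavl3, elavl4 and tubb5 lie above 0, and those of nefla and sv2ba lie below 0. The gray genes did not pass, although some of their unadjusted intervals, such as those of snap25b and tubb4b, also exclude 0.

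Because elavl3 is a general marker of neurons, each marker was also divided by elavl3 in the same library. For snap25a this ratio was 2.0, 1.15 and 1.29 in wild type and 0.778, 0.820 and 0.778 in mutants. For snap25b it was 0.989 to 1.61 in wild type and 0.466 to 0.620 in mutants. All 6 neurofilament and synaptic markers, these included, had lower ratios in every mutant library than in any wild type library. The ratio of syt1a was 0.495 to 0.649 in wild type and 0.272 to 0.333 in mutants, and that of sv2a was 0.219 to 0.291 and 0.169 to 0.193. For nefma it was 0.370 to 0.635 and 0.175 to 0.250, and for nefla 0.0669 to 0.118 and 0.0189 to 0.0348. Dividing by a gene that rose lowers most ratios: on this scale 76% of all genes tested were lower in mutants without overlap, so the 6 genes are not distinguished from the background. The ratios of elavl4 and tubb5 overlapped between groups.

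**Figure D3:**
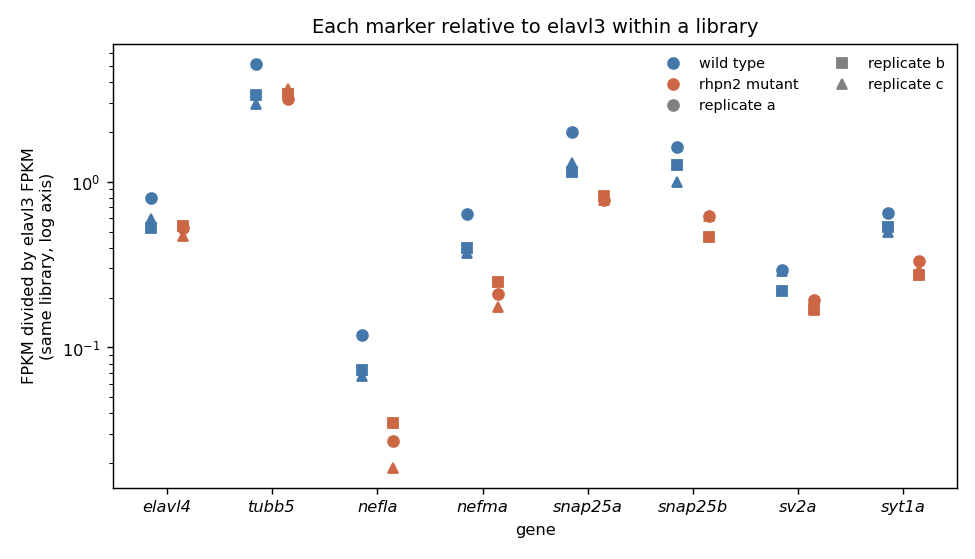
FPKM of each marker divided by the FPKM of elavl3 in the same library (vertical log axis) in wild type (blue) and mutant (orange) libraries. The ratios of nefla, nefma, snap25a, snap25b, sv2a and syt1a are lower in every mutant library, and those of elavl4 and tubb5 overlap.

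Some libraries ranked high or low for many markers. Among mutants, replicate a had the highest FPKM for 7 of the 9 markers and replicate c the lowest for 6. Among wild type samples, replicate c was the highest for 5 markers and replicate b the lowest for 5. How often each library ranked highest or lowest over all genes was not counted, so these ranks are not read as particular to the markers. The groups did not overlap for 4 markers, 3 higher and 1 lower, while this held for 49% of all genes tested, 31.7% higher and 17.3% lower.

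Other genes linked to neurons were taken from 5 lists, chosen with earlier results of these data known. The libraries are of whole embryos, so any transcripts of these genes from other cells are counted too. Counts from these lists are therefore not independent of the data. The lists held 176 symbols, of which 157 genes were tested. Of these 34 rose, which is 21.7%, and 18 fell, which is 11.5%, beside 16.5% and 16.7% over all genes. Their median change was 0.14. Without mutant a only 17 rose and 21 fell, and without wild type b 22 rose and 20 fell. Over all genes, 16.2%, 13.3% and 13.6% were called higher when wild type a, b or c was left out, and 11.7%, 11.7% and 12.1% when mutant a, b or c was. Called lower were 12.8% without mutant a and 13.8% without wild type b. Over the 5 lists together, the excess of rises was thus absent without mutant a and small without wild type b. The cytoskeleton list alone still had 12 rises among 36 genes without mutant a and 14 without wild type b. Some genes named below are outside the rule given with the methods, and these were picked with their values in view.

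The cytoskeleton list, which holds tubulins, stathmins, collapsin response mediators and microtubule-associated proteins, had 14 rises and 1 fall among 36 genes, median 0.22. That is 38.9% and 2.78%, beside 16.5% and 16.7% of all genes. Without mutant a 12 rose and 2 fell, where 11.7% of all genes were called higher and 12.8% lower. Without wild type b 14 rose and 3 fell, beside 13.3% and 13.8%. Without wild type a 17 rose and 1 fell, beside 16.2% and 16.9%. The alpha tubulin gene tuba1a rose 2.06-fold, from 113, 98.1 and 107 FPKM to 260, 212 and 236 FPKM (adjusted p 1.87e-05). The more abundant tuba1c, at 312 ± 29.1 FPKM in wild type and 414 ± 61.0 FPKM in mutants, did not pass (log2 change 0.30, adjusted p 0.0702). Nor did tuba2 (0.17, adjusted p 0.263). The split of reads between alpha tubulin copies is uncertain, as for the beta tubulins. Both dpysl2b, whose product couples guidance signals to the growth cone cytoskeleton, and map2, which encodes a microtubule-binding protein of dendrites, rose, by 1.85-fold and 1.96-fold. The remaining rises were inab, prph, stmn1b, stmn2b, map1b, mapta, maptb, dclk1b, dpysl3, dpysl4 and dpysl5a. Of these, inab and prph encode neuronal intermediate filament proteins, as nefla does, and rose 1.73-fold and 1.46-fold. The stathmin gene stmn3 fell 1.56-fold. The most abundant gene of the list was tubb4b, given above.

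Neuronal RNA-binding genes showed 6 rises and no fall among 17 genes, median 0.33, beside 16.5% and 16.7% of all genes. The splicing factor genes nova1, nova2 and rbfox1 rose, with log2 changes of 0.77, 0.58 and 0.40, and celf3a, celf3b and rbfox3b were the other 3. For nova1, FPKM was 20.5 to 32.7 in wild type and 38.5 to 55.4 in mutants, so the groups did not overlap (adjusted p 0.00183). The most abundant, rbfox2, had a log2 change of 0.22 with TMM scaling (adjusted p 0.0997) and passed with library totals (0.33, adjusted p 0.0208). It also passed with quantile normalization (0.0388), with limma at pseudocounts of 1 and 0.1 (0.0187 and 0.0202) and without wild type a (0.0243). Under 10 of 15 alternatives rbfox2 did not pass. Without mutant a 2 of the 17 genes rose, where 11.7% of all genes were called higher. Without wild type b or mutant c 3 did, beside 13.3% and 12.1% of all genes. The excess of rises among RNA-binding genes was thus absent without mutant a. The call of rbfox1 was lost without wild type b (adjusted p 0.0612) or mutant a (0.0633).

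Of 34 genes for neuronal surface proteins and channels, 11 rose and 2 fell, median 0.24, beside 16.5% and 16.7% of all genes. The axonal adhesion genes cntnap2b and cntn2 rose 1.92-fold and 1.75-fold, and the calcium channel gene cacna1aa rose 1.49-fold (adjusted p 0.0102, and 0.0529 without mutant a). For cntn2 the values were 6.41, 10.2 and 11.5 FPKM in wild type and 19.0, 17.5 and 16.3 FPKM in mutants, with every mutant library above every wild type library. The genes that fell, atp1a3b and cntn1b, changed by -0.33 and -0.62 on the log2 scale. Their calls were lost with library totals (adjusted p 0.123 and 0.106). The call of atp1a3b was also lost without wild type c or mutant c (0.0516 and 0.0905), and that of cntn1b without wild type b, mutant b or mutant c (0.173, 0.145 and 0.0588). In this list 2 genes rose and 3 fell without mutant a, where 11.7% of all genes were called higher and 12.8% lower. Without wild type b 5 rose and 3 fell, and without mutant b 5 rose and 1 fell. The excess of rises in this list was thus absent without mutant a. The most abundant gene, the sodium pump gene atp1a3a, had a log2 change of 0.03.

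Genes of transmitter synthesis, transport and breakdown mostly did not pass, with 2 rises and 3 falls among 26 genes, median 0.04. That is 7.69% and 11.5%, below the 16.5% and 16.7% over all genes. The glycine transporter gene slc6a5, a marker of glycinergic neurons, and the vesicular glutamate transporter gene slc17a6a rose 1.51-fold and 1.49-fold. Both calls were lost without wild type b (adjusted p 0.0727 and 0.0775), that of slc6a5 also without mutant b (0.107), and that of slc17a6a without mutant a (0.101). The falls were in the vesicular glutamate transporter genes slc17a7b (2.34-fold) and slc17a7a (1.79-fold, adjusted p 0.014) and the noradrenaline transporter gene slc6a2 (1.88-fold). The call of slc17a7a was lost without wild type b (adjusted p 0.0688) or mutant b (0.0583) and with a pseudocount of 0.1 in limma (0.0531). Without wild type c, 6 genes of the list rose, without wild type b 0 did, and without mutant a 1 did. Over all genes, 13.6%, 13.3% and 11.7% were called higher in those fits, in that order. The most abundant gene, the acetylcholinesterase gene ache, had a log2 change of -0.08.

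In the list of synaptic release genes, 1 rose and 12 fell among 44 tested, median -0.02, so 27.3% fell and 2.27% rose. Over all genes 16.7% fell and 16.5% rose. Besides sv2ba, the synaptotagmin gene syt5b fell 2.38-fold, from 38.1, 40.0 and 35.6 FPKM to 21.3, 11.2 and 19.1 FPKM (adjusted p 0.000192). The vesicle chaperone gene dnajc5ab fell 1.61-fold, from 11.4, 12.4 and 13.6 FPKM to 9.52, 7.67 and 7.90 FPKM. Mutant libraries of both genes were all below the wild type range. Among the called genes of the list cplx4a fell most, 3.41-fold; in mouse its product is a complexin of retinal ribbon synapses. The others that fell were syt5a, vamp1, sypb, rab3aa, unc13ba, sncga, syngr3b and doc2b. The rise was in the synapsin gene syn1, 1.35-fold, which no longer passed without wild type b, mutant a or mutant b (adjusted p 0.0998, 0.112 and 0.066) and with quantile normalization (0.0506). Without wild type c, 9 of the 44 genes rose and 13 fell, where 13.6% of all genes were called higher and 14.8% lower. The most abundant gene, sncb, had a log2 change of -0.03.

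Annotated spans of other genes overlap nova2, rbfox2, rbfox3b, prph, stmn1b, dpysl3, cplx4a, doc2b, slc17a7a, ache, tubb6, snap23.1, snap23.2 and snap47. The strand setting of the counting is unknown, so reads of overlapping genes may be mixed there.

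**Figure D4:**
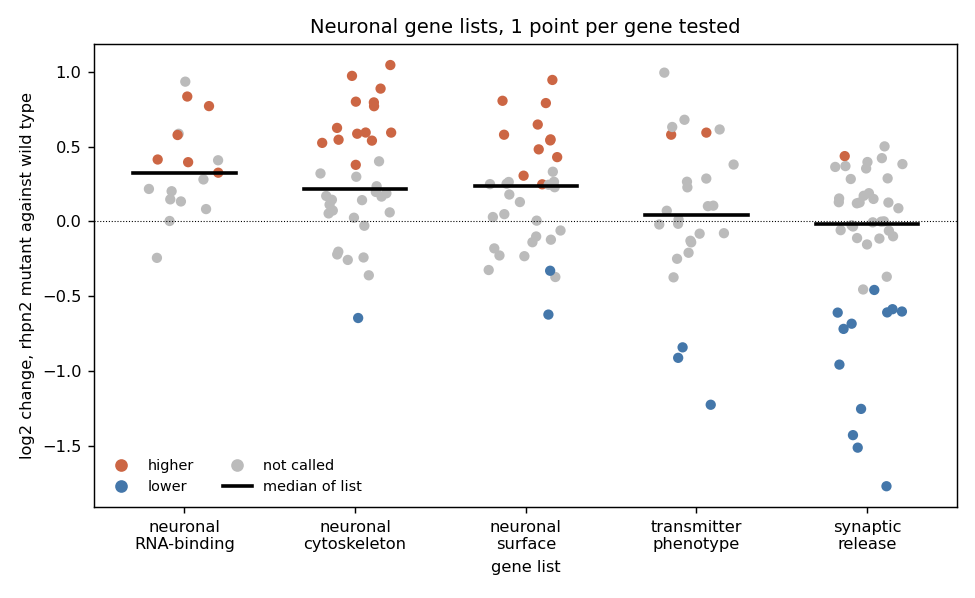
Log2 change of mutant against wild type (vertical axis) for each tested gene of the 5 neuronal lists, with called genes in orange (higher) or blue (lower) and the list's median as a black bar. Calls in the RNA-binding, cytoskeleton and surface lists are mostly above 0, with 6 of 17, 14 of 36 and 11 of 34 genes higher. Those in the synaptic release list are mostly below 0, with 12 of 44 lower. Over all genes, 16.5% were called higher and 16.7% lower. Without mutant a the surface list had 2 rises and 3 falls and the RNA-binding list 2 rises, beside 11.7% and 12.8% of all genes. The cytoskeleton list then had 12 rises and 2 falls. Without wild type c the release list had 9 rises and 13 falls, beside 13.6% and 14.8%.

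Markers of other cells that the embryo holds were also counted, beside 16.5% of all genes called higher and 16.7% called lower. Photoreceptor markers were lower for 25 of 27 genes tested and higher for none, with a summed level of 1832 to 2244 FPKM in wild type libraries and 402 to 798 FPKM in mutant libraries. Photoreceptors also contain vesicle release proteins, and their part in the falls of synaptic genes was not tested. The list of neural progenitor markers also holds pcna, mki67 and mcm2, which mark dividing cells of any type. It was higher for 18 of 23 genes tested and lower for none, with sums of 493 to 515 FPKM in wild type and 708 to 717 FPKM in mutants. These values are therefore not of neural progenitors alone. The part of progenitors in the rises of elavl3, elavl4 and tubb5 was not tested.

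Other marker lists gave the following counts, to be read beside the same 16.5% and 16.7% of all genes. Those shares were 17.1% and 16.6% with quantile normalization, and 22.1% and 11.9% with library totals. Shares called higher with each library left out are given above. Markers of retinal ganglion, amacrine and bipolar cells had 5 rises and 1 fall among 17 genes, with sums of 151 to 200 FPKM in wild type and 155 to 231 FPKM in mutants. Some of these genes, such as ptf1a and tfap2a, are also expressed outside the retina, so the values are not of retinal cells alone. That list had 2 rises without mutant c and 3 without mutant a, and its median of 0.17 was below 0 without wild type a, wild type c, mutant a or mutant c. Markers of glia had 5 rises and 5 falls among 17 genes, with sums of 993 to 1069 and 1081 to 1183 FPKM, and 3 rises without wild type b or mutant a. The endocrine list, of granule and hormone genes and the transcription factor genes pax6b, neurod1 and isl1, had 3 rises and 3 falls among 21. That is 14.3% in each direction, near the shares over all genes, with sums of 294 to 313 and 298 to 337 FPKM. Skeletal muscle markers had 9 falls and no rise among 21, with sums of 49004 to 56468 and 41716 to 46440 FPKM. With quantile normalization the muscle list had 3 rises and 6 falls, and with library totals 1 rise and 9 falls. No gene of these 6 marker lists was at 0 in all libraries.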

How the data were processed

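The authors deposited, per the file headers, whole-number counts and FPKM for each gene and library, with exonic gene sizes, coordinates and symbols. Counts were not normalized. FPKM recomputed from counts, gene sizes and library totals matched the deposited FPKM within 0.01 for 100% of values. Per the submitters' processing notes, Salmon 1.9.0, STAR 2.7.10a, fastp 0.23.2 and bcl2fastq 2.20.0.422 were used, in roles not stated. The counting tool, strand setting, genome build and annotation: not given in the sources used here. No build is therefore attached to the table's coordinates. Columns headed ctrl and rhpn2-1 were matched to wild type and mutant samples by letter.

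The quasi-likelihood test in edgeR 4.0.16 (R 4.3.3) was run on counts with TMM scaling, filterByExpr (minimum count 10, total 15) and group as the only term, and p-values were adjusted by Benjamini-Hochberg over 20032 genes. The SE is the log2 change over the square root of F. Alternatives used limma 3.58.1 on log2(FPKM + 1) where mean FPKM reached 1, and DESeq2 1.42.0. The steps were also run on simulated counts, in which far fewer genes changed than were called here. That run does not test the choice of scaling.

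The markers and lists were chosen with earlier results of these data known. The rule names all markers, their tested paralogues, and from each neuronal list up to 3 genes with the smallest p in each direction and the most abundant gene. Of 176 list symbols, 159 were found.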

Additional observations from a re-analysis of the deposited data

How the results depend on the processing

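The calls of elavl3, elavl4, tubb5 and nefla kept their direction and passed under all 15 alternatives (other scalings, filters, pseudocounts and tools, the replicate block, and leaving out each library), in which 24.1% to 35.4% of all genes were called. Log2 changes ranged from 0.68 to 0.98 for elavl3, 0.44 to 0.66 for elavl4, 0.67 to 1.01 for tubb5 and -0.94 to -0.52 for nefla, whose highest adjusted p was 0.0492. The changes of snap25a (-0.15 to 0.10) and syt1a (-0.20 to 0.08) took either sign and never passed, and those of nefma (-0.35 to -0.10), snap25b (-0.44 to -0.14) and sv2a (0.11 to 0.48) kept their sign. Leaving out each library in turn gave 3 to 4 markers higher and 1 to 2 lower, with sv2a called without wild type c and snap25b without mutant a. It gave 17 to 46 genes of the neuronal lists higher and 15 to 21 lower. The log2 difference was then 0.44 to 0.62 in the ratio of nefma to nefla, -0.43 to -0.12 in that of elavl4 to elavl3 and -0.40 to -0.14 in that of snap25b to snap25a. The other alternatives gave 31 to 44 list genes higher and 13 to 20 lower. With library totals the all-gene median was 0.113 in place of 0.006.

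The replicate letter as a block gave 13.3% of all genes higher and 13.4% lower. It gave 3 markers higher, 1 lower, and 31 and 16 list genes higher and lower. It gave 8 higher and 0 lower in the surface list, where atp1a3b and cntn1b no longer passed (adjusted p 0.0517 and 0.0757), and 5 lower in the muscle list. Same-lettered samples did not deviate together (correlations of -0.15, -0.04 and -0.22), so the letters were not taken as pairs. The gene nefla rests on 74 to 201 counts per library, the fewest of the markers, which limits the precision of its change.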
